A study of Mus musculus and Homo sapiens with 47 samples.

Results

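The cells described here are those of a mouse intestinal stem cell library, sampled at a labelled day 12, that carried the mRNAs of the pancreatic lipase relatives Pnliprp1 and Pnliprp2 and of the small secreted protein gene Wfdc18. A cell was kept if it had 2500 UMIs or more (unique molecular identifiers, each a single counted mRNA molecule), a minimum of 500 genes and no more than 20% of its UMIs from mitochondrial genes. A kept cell was called high with at least 10 UMIs over the 3 genes and at least 2 of the genes detected, and low with 2 UMIs or fewer over the 3 genes. By this rule 1136 of the 4664 kept day 12 cells were high (24.4%, 95% Clopper-Pearson interval 23.1% to 25.6%), out of 11289 kept cells in the 3 single-cell libraries of the series, and 1967 were low. The measured levels of these 3 genes chose the cells, so their levels at day 12 are a description and carry no test.

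All mouse cells came from animals with floxed Eed (Eed F/F), which encodes a core subunit of Polycomb repressive complex 2, and with the Lgr5EGFP-IRES-CreERT allele, on a B6;129 mixed background. Tamoxifen activated the Cre, and the sort took cells with GFP out of proximal intestinal epithelium. GFP and the Cre were both expressed from the Lgr5 allele. Single cells were profiled in droplets by 3' RNA tags at days 7, 12 and 16, with a single library per day, and bulk RNA was sequenced at day 9 (3 libraries), day 14 (2), day 21 (2) and day 30 (1). What the days are counted from, the number of animals per library and their ages are not given in the labels. All groups used here carry the same Eed and Lgr5 alleles, with no wild-type RNA library among them.

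Polycomb repressive complex 2 places the silencing mark H3K27me3 on histone H3 and keeps many developmental genes off. Lgr5-expressing stem cells at the crypt base divide and give rise to absorptive enterocytes and to secretory Paneth, goblet, tuft and enteroendocrine cells. Pancreatic lipase and its relatives digest dietary fat in the gut lumen. PNLIPRP2 splits galactolipids and phospholipids besides triglycerides, while PNLIPRP1 has little known lipase activity. Wfdc18 encodes a short protein with a WAP domain, a fold found in many secreted protease inhibitors.

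The promoter windows of the 3 genes are shown because the 3 mRNAs define these cells and 2 of the genes lie side by side on chromosome 19. Each window runs from 250 bases before to 50 bases after the RefSeq transcription start, on the + strand of GRCm38.p6, and was taken from RefSeq. The window of Pnliprp1 is chr19:58728637-58728936, that of Pnliprp2 is chr19:58759473-58759772, and that of Wfdc18 is chr11:83708754-83709053. The capitals mark every match, on either strand, to 4 short motifs: TTCNNNNGAA and TTCNNNGAA, the forms bound by STAT factors, TATAAA, the TATA box, and GATAA, the core of GATA factor sites.
Pnliprp1: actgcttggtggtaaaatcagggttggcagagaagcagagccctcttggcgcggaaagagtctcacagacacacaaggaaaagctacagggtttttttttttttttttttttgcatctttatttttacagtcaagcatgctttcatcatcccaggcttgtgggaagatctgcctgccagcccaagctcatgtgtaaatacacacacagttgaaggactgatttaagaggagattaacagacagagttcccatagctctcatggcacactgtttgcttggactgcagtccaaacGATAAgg
Pnliprp2: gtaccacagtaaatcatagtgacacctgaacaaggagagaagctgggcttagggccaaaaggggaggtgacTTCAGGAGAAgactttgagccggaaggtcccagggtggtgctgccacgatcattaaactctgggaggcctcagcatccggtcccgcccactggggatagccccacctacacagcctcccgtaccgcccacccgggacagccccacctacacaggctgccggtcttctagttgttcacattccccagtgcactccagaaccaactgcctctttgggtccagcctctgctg
Wfdc18: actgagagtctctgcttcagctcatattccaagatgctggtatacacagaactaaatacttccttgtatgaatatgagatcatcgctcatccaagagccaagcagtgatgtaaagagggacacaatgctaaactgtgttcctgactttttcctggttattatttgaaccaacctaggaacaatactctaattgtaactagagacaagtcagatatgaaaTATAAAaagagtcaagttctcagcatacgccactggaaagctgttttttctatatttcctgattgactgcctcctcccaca
Pnliprp1 held a single GATAA, at bases 294 to 298 of its window. Pnliprp2 held a single TTCNNNNGAA match, at bases 72 to 81, and Wfdc18 a single TATAAA, at bases 220 to 225 and 31 bases before the start. No window held TTCNNNGAA. Among 32851 RefSeq mouse promoters of the same length, 25.4% held GATAA, 6.95% held TTCNNNNGAA, 13.6% held TATAAA and 8.3% held TTCNNNGAA. GC content was 44.3% for Pnliprp1, 58.7% for Pnliprp2 and 39% for Wfdc18, beside a median of 52.7% over all promoters, and the windows held 3, 8 and 2 CpG sites, beside a median of 7. None of the 4 motifs was shared between the windows, and a match is a description of the letters only.

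Some facts of the libraries bear on all that follows. Kept cells held 35516617, 40277196 and 35319592 UMIs in all at days 7, 12 and 16, and pairs of libraries shared 4, 1 and 4 cell barcodes. Each day is 1 library, so a difference between days and a difference between libraries cannot be told apart, and no test between days or between groups of cells of a library was made. The libraries also differed in genes that vary between mice: Pla2g2a, the secreted phospholipase A2 whose gene is disrupted in C57BL/6 mice, stood at 612, 1252 and 24.5 CPM (UMIs of the gene scaled to a fixed total per library) over all kept cells at days 7, 12 and 16, and its part in the results was not tested. The reads are 3' tags and the labels do not say which part of Eed the deletion removes, so the 21.7 CPM of Eed in high cells, against 32.8 CPM in low cells, does not check the deletion.

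In a high cell the 3 mRNAs were a small but clear share of the transcripts. The median high cell had 22 UMIs over the 3 genes, and the highest had 362. By gene, the medians were 3 UMIs of Pnliprp1, 5 of Pnliprp2 and 9 of Wfdc18, and the maxima 139, 222 and 118 UMIs. Wfdc18 was detected in 92.1% of high cells, Pnliprp2 in 87.7% and Pnliprp1 in 84.2%. In low cells, whose few UMIs the rule limits, the shares were 38.4%, 13.2% and 9.71%, at median depths of 6897.5 UMIs in high cells and 8230 UMIs in low cells. After thinning every cell to 2500 UMIs the shares were 81.5%, 68.7% and 60.7% in high cells, against 16.1%, 4.73% and 3.66% in low cells. Among the 20 day 12 cells over the enterocyte marker gate, at a median of 14972 UMIs, 15% had a Wfdc18 UMI, 5% a Pnliprp2 UMI and none a Pnliprp1 UMI, from 4, 1 and 0 UMIs in all. Barcodes of at most 50 UMIs, which hold free RNA, carried 596 CPM of Wfdc18, 293 CPM of Pnliprp2 and 167 CPM of Pnliprp1 at day 12, and how many of the single UMIs in low cells came from free RNA was not tested.

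The high cells were not uniform in which gene led. All 3 genes were detected in 726 of the 1136 (63.9%), Pnliprp2 and Wfdc18 alone in 180, Pnliprp1 and Wfdc18 alone in 140, and the 2 lipase relatives alone in 90. Wfdc18 gave the most UMIs in 596 cells (52.5%), Pnliprp2 in 359 (31.6%) and Pnliprp1 in 152 (13.4%), and 29 cells were tied. Over the 1136 high cells the levels of Pnliprp1 and Pnliprp2 had a Spearman correlation of 0.49, while Wfdc18 stood at -0.20 with Pnliprp1 and -0.34 with Pnliprp2. Over all 4664 kept cells the correlations were 0.56, 0.28 and 0.25. These are descriptions over cells of 1 library that share its free RNA, and within the high cells a minimum on a sum lowers any correlation between its parts. Another 239 cells reached 10 UMIs with 1 gene only, and in 225 of them that gene was Wfdc18.

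The limit of the rule fell within a continuous range. The 129 high cells with 10 or 11 UMIs held a mean of 1.95 Pnliprp1, 2.71 Pnliprp2 and 5.86 Wfdc18 UMIs. The 159 cells just outside, with 8 or 9 UMIs and at least 2 genes, held 1.28, 2.42 and 4.77 UMIs.

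The rule found far fewer cells in the other libraries. It was met by 32 of 3833 kept cells at day 7 (0.835%, interval 0.572% to 1.18%), 1136 of 4664 at day 12 and 12 of 2792 at day 16 (0.430%, 0.222% to 0.750%). With all cells thinned to 2500 UMIs the shares were 0.235%, 9.33% and 0.0358%. Over all kept cells Pnliprp1 stood at 12.3, 228 and 2.77 CPM at days 7, 12 and 16, Pnliprp2 at 27.2, 351 and 29.7 CPM, and Wfdc18 at 45.0, 596 and 0.227 CPM. Day 12 was the highest of the 3 libraries for each gene, and Pnliprp2 was as high at day 16 as at day 7 while Wfdc18 was near its floor at day 16. The 12 cells of day 16 held 461 Pnliprp2, 22 Pnliprp1 and 0 Wfdc18 UMIs, and all 12 lay over the Paneth marker gate (at least 5 of 18 Paneth markers detected and at least 1% of UMIs from them). Of the same 12, 8 also lay over the goblet marker gate.

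**Figure D1:**
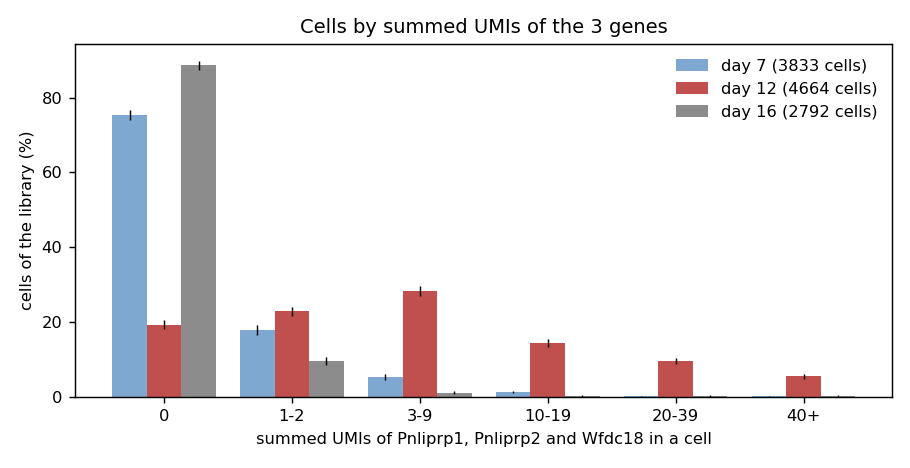
Share of kept cells (%) by the summed UMIs of Pnliprp1, Pnliprp2 and Wfdc18 in a cell, at days 7, 12 and 16, with 95% Clopper-Pearson intervals that cover counting error only. At day 12, 5.49% of cells held 40 UMIs or more, beside 0.157% at day 7 and 0.322% at day 16.

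Outside the 3 genes, high cells carried more mRNA of Bpifb5, S100a6, Clu, H19 and Cdkn1c than low cells of the same library, and less of Fabp2, Lgals4 and Reg3b. Levels were compared as summed UMIs in CPM, with the total taken over UMIs other than those of the 3 genes, and intervals of a ratio cover counting error only. That total was 8959561 UMIs in high cells and 18171213 in low cells, so raw UMI counts of the groups are not on the same scale. Of 6413 genes with at least 20 CPM in the higher group, 245 were at least 2-fold higher in high cells (3.82%) and 192 at least 2-fold lower (2.99%), and the median log2 ratio over all 6413 was 0.07. The fixed naming rule took the 20 highest genes, which include the 3 that chose the cells, and the 10 lowest among well-detected genes. Being picked by this contrast, their direction at day 12 is built in.

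Several of the 17 highest other genes encode secreted or matrix proteins. Bpifb5, of the lipid-binding BPI fold family, stood at 119 CPM in high cells and 4.24 CPM in low cells (28.1-fold, 22.3 to 35.9). Clu, the secreted chaperone clusterin, stood at 1718 CPM in high cells and 404 CPM in low cells (4.25-fold, 4.13 to 4.37). Spock2, an extracellular proteoglycan, stood at 136 CPM in high cells and 22.3 CPM in low cells (6.11-fold). Col9a3, a collagen IX chain, Igfbp2, which binds insulin-like growth factors, and Trf, the iron carrier transferrin, were 5.15-fold, 4.91-fold and 4.33-fold higher in high cells, and the peptide hormone gene Npy was 10.0-fold higher (86.9 CPM in high cells, 8.70 CPM in low cells). Wif1, a secreted Wnt inhibitor, stood at 120 CPM in high cells and 22.9 CPM in low cells (5.25-fold).

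Some of the others act at the surface or inside the cell. S100a6, a calcium-binding protein, was the most abundant, with 4040 CPM in high cells and 762 CPM in low cells (5.30-fold, 5.20 to 5.41). Ceacam10 and Cd177, which encode glycoproteins, stood at 565 and 412 CPM in high cells and at 101 and 73.1 CPM in low cells. Aldh1a2, which makes retinoic acid, was 8.73-fold higher, Ctse, the aspartic protease cathepsin E, 7.82-fold, the metallothionein Mt3 7.42-fold, and the annexin Anxa5 4.31-fold. H19, an imprinted non-coding RNA, stood at 170 CPM in high cells and 22.1 CPM in low cells (7.66-fold, 6.86 to 8.58). Cdkn1c, an imprinted inhibitor of cyclin-dependent kinases, stood at 710 CPM in high cells and 183 CPM in low cells (3.87-fold, 3.71 to 4.04). Igf2, chosen after its values were seen as the imprinted neighbour of H19, had 78 UMIs in high cells and 14 in low cells (11.3-fold, 6.35 to 21.6).

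The 10 lowest genes were led by Fabp2, Prap1 and Cps1, all on the enterocyte list. Fabp2, a fatty acid carrier of enterocytes, stood at 4.02 CPM in high cells and 107 CPM in low cells (26.7-fold lower in high cells). Prap1 was 18.2-fold lower and Cps1, the mitochondrial enzyme that starts the urea cycle, 12.2-fold lower. Lgals4, the gut galectin, stood at 69.3 CPM in high cells and 447 CPM in low cells (6.45-fold lower). Reg3b, an antimicrobial lectin, stood at 1041 CPM in high cells and 4927 CPM in low cells (4.73-fold lower). Ifi27l2b, Serpinb1a, Rgcc, Myl9 and Eps8l3 were 3.75-fold to 5.43-fold lower in high cells.

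Read cell by cell, a partly different group of genes tracked the 3 mRNAs. Over the 4664 day 12 cells and 7357 genes, the level of S100a6 had the largest Spearman correlation with the summed level of the 3 genes (0.53). Next came Pglyrp1, a peptidoglycan-binding antibacterial protein (0.50), Cfi, complement factor I (0.48), Notum, an enzyme that inactivates Wnt ligands (0.45), and Pla2g2a (0.44). Pglyrp1 stood at 1153 CPM in high cells and 363 CPM in low cells, Cfi at 852 and 371 CPM, Notum at 941 and 310 CPM, and Pla2g2a at 1781 and 901 CPM. Points share the library, and a cell's depth enters both levels.

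Of the 22 stem cell markers at 20 CPM or more, 4 were at least 2-fold lower in high cells, 0 higher and 18 between, where 2.99% of all genes were lower and 3.82% higher. The median log2 ratio of the list was 0.04, beside 0.07 over all genes. The same values over all genes stand beside each list count below that keeps all cells. Lgr5, the marker used for the sort, stood at 275 CPM in high cells and 199 CPM in low cells, and was detected in 76.7% of high cells and 71.5% of low cells. Smoc2, another crypt base marker, stood at 806 CPM in high cells and 562 CPM in low cells. The 4 lower ones were Olfm4, Aqp4, Cdca7 and Slc12a2. Olfm4, a secreted crypt glycoprotein, was low throughout the day 12 library, with 9 UMIs in high cells and 367 in low cells, and with 241, 10.1 and 437 CPM over all kept cells at days 7, 12 and 16.

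Enterocyte markers were lower in high cells, and much of that difference lay in a few low cells. Of 15 enterocyte markers, 10 were at least 2-fold lower and 0 higher in high cells, with a median log2 ratio of -1.73. Over all genes compared, 2.99% were lower and 3.82% higher. Fabp1, a fatty acid carrier, had 10 UMIs in high cells and 2463 in low cells, and the apolipoprotein genes Apoa1 and Apoa4 had 11 and 3 UMIs in high cells and 1670 and 675 in low cells. The low cells included 20 cells over the enterocyte gate, and the high cells 0, which allows a share of up to 0.264% by the floor of 3 counts (the Clopper-Pearson upper bound is 0.324%). Cells over any class gate held 53.1% of the enterocyte marker UMIs of the low cells. With all such cells left out, 6 of 11 enterocyte markers were at least 2-fold lower in high cells, where 176 of 6389 genes were. The log2 ratios of Apoa1 and Apoa4 were then 0.73 and 0.23, from at most 11 and 3 UMIs in high cells. Goblet markers went the same way, with 6 of 8 lower, but without cells over a gate 0 of 2 were.

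Paneth markers were higher in high cells by count, and this rested on few cells. Of 15 Paneth markers, 11 were at least 2-fold higher and 1 lower, where 3.82% and 2.99% of all genes were. Their median log2 ratio was 1.95, and their summed level was 5599 CPM in high cells and 2367 CPM in low cells. Defa5, an alpha-defensin, was 21.8-fold higher, Mptx2, a mucosal pentraxin, 11.9-fold higher and Ang4, an antimicrobial ribonuclease, 4.39-fold higher. The Paneth gate held 7 high cells (0.616%, 0.248% to 1.27%) and 13 low cells (0.661%, 0.352% to 1.13%), and these 7 cells carried 48.3% of the Paneth marker UMIs of the high cells. Without Paneth-gate cells, 3 of 9 markers were at least 2-fold higher and 2 lower, where 238 and 193 of 6413 genes were. The median log2 ratio was then 0.17, and Defa5, Mptx2 and Ang4 stood at log2 ratios of -0.29, -0.89 and -3.0.

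The pancreatic acinar list was nearly empty, although lipases are made by acinar cells. Of 22 acinar markers in the files, 11 had at least 1 UMI in either group and 3 reached 20 CPM. The trypsinogen gene Prss1, the carboxypeptidase gene Cpa1, the amylase gene Amy2a5 and Ptf1a, the acinar transcription factor, had 0 UMIs in both groups. Pnlip, the classical pancreatic lipase, had 6 UMIs in high cells and 1 in low cells. Clps, the cofactor of pancreatic lipase, stood at 66.4 CPM in high cells and 16.6 CPM in low cells, and Cela1, an elastase, at 171 and 70.5 CPM. The log2 ratio of Clps was 0.95 without Paneth-gate cells and 1.92 without cells over any gate. Zg16, which goblet cells also make, was the third and stood at 4.35 CPM in high cells and 404 CPM in low cells. Without Paneth-gate cells, 1 of 2 acinar markers was at least 2-fold higher and 1 lower, where 238 and 193 of 6413 genes were. The other secreted lipases and WAP genes did not share the pattern at this size: of 5 lipase and cofactor genes 1 was at least 2-fold higher (Clps) and 1 lower, and of 4 without Paneth-gate cells 0 were higher and 1 lower, and of 2 WAP domain genes 0 were, with Wfdc15b at 86.4 CPM in high cells and 52.4 CPM in low cells.

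Cell cycle genes were lower in the high cells across nearly the whole list. Of 25 members, 20 were at least 2-fold lower and 0 higher, where 2.99% and 3.82% of all genes were. The median log2 ratio of the list was -1.29. Ccnb1, the mitotic cyclin B1, stood at 16.3 CPM in high cells and 53.7 CPM in low cells, and Ube2c, which serves the exit from mitosis, at 66.9 and 200 CPM. At 2500 UMIs per cell, 73 of 1136 high cells had a UMI of Mki67 or Top2a, both made in dividing cells (6.43%, 5.07% to 8.01%), against 388 of 1967 low cells (19.7%, 18.0% to 21.6%). At full depth the shares were 11.7% of high cells and 33.0% of low cells. Of 2 CDK inhibitors at 20 CPM, Cdkn1c was higher in high cells and Cdkn1a stood at 78.7 CPM in high cells and 65.9 CPM in low cells. Cdkn2a, a known Polycomb target, had 26 UMIs in high cells and 15 in low cells, or 2.90 and 0.825 CPM (3.52-fold, 1.79 to 7.14).

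Genes of injury and immunity split. Beside the counts that follow, 3.82% of all genes compared were at least 2-fold higher in high cells and 2.99% lower. Of 8 fetal and repair state genes, 3 were at least 2-fold higher in high cells, Clu and Anxa5 among them, and 0 were lower. Anxa5 stood at 73.3 CPM in high cells and 17 CPM in low cells. Of 11 interferon-stimulated genes, Usp18, Igtp and Ifit1 were at least 2-fold higher, with a list median log2 ratio of 0.55. By contrast, all 3 Reg family lectins were at least 2-fold lower in high cells (Reg3g stood at 631 CPM in high cells and 1791 CPM in low cells), and so were 4 of 6 MHC class II genes, among them H2-Aa with 26.3 CPM in high cells and 93.7 CPM in low cells. Of 20 immediate-early and heat-shock genes, which respond to cell handling, 4 were higher, Nr4a1 among them at 224 CPM in high cells and 86.3 CPM in low cells, and Hspa1a was lower, and their part in the result was not tested. Of 7 type 2 cytokine response genes 3 were higher. Without Paneth-gate cells 1 was higher and 1 lower, where 238 and 193 of 6413 genes were. Of 19 secretory and protein folding genes, Dnajb9 alone was higher at this size.

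Markers of cells from outside the epithelium were scarce. No lymphoid or myeloid marker reached 20 CPM, with summed levels of 4.13 and 40.6 CPM in high cells and 5.45 and 42.7 CPM in low cells. Vim, an intermediate filament gene listed as stromal, stood at 1041 CPM in high cells and 470 CPM in low cells, and no other of the 14 stromal and endothelial markers reached 20 CPM. Of the other lists, 1 of 3 tuft markers was higher (Avil) and 1 of 2 enteroendocrine markers was lower (Cck). Without cells over a gate, Cck stood at a log2 ratio of 0.97, from at most 4 UMIs in high cells. All 8 PRC2 subunits differed by less than 2-fold, and no Hox gene reached 20 CPM. Lyz1, the lysozyme gene and the 1 Brunner gland marker at this level, stood at 583 CPM in high cells and 497 CPM in low cells, and at a log2 ratio of -3.17 without Paneth-gate cells. In all, 12 high cells (1.06%) and 99 low cells (5.03%) lay over any class gate.

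**Figure D2:**
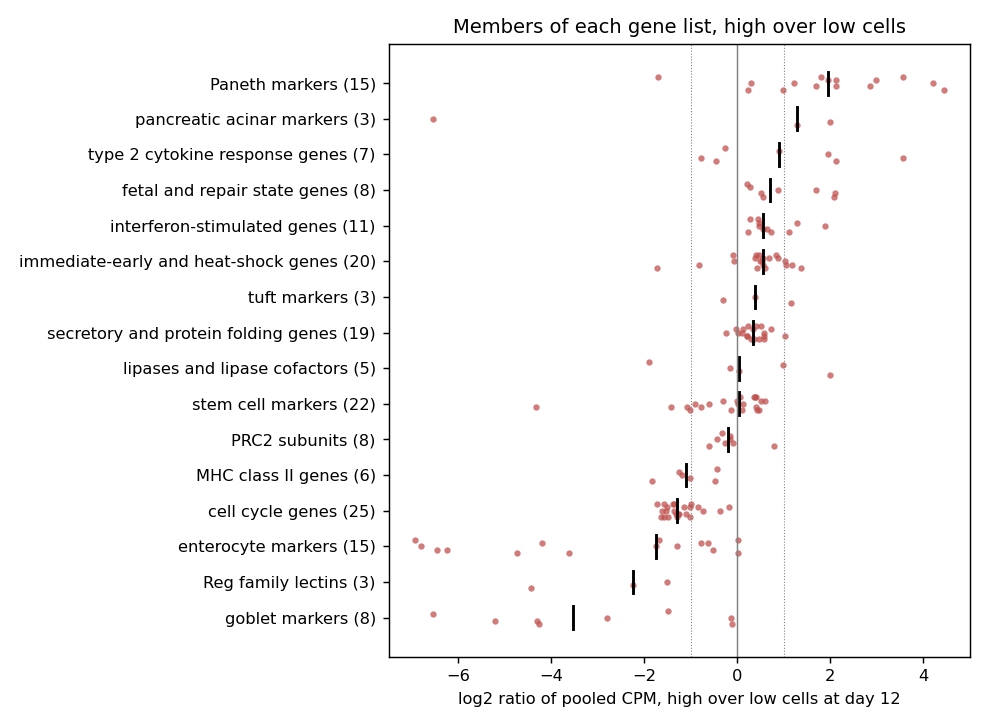
Log2 ratio of pooled CPM, high over low cells at day 12, for each list member with at least 20 CPM in the higher group (points; number of members in parentheses), with the list median as a bar and dotted lines at 2-fold. Cell cycle genes lie at a median of -1.29, and Paneth markers at 1.95 with Paneth-gate cells included.

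Levels of many named genes were graded with the summed UMIs of the 3 genes. Cells without the Paneth gate were grouped by 0, 1 to 2, 3 to 9, 10 to 19, 20 to 39 and 40 or more UMIs. S100a6 stood at 501, 999, 1793, 3117, 4123 and 5659 CPM over these bins. Clu stood at 301, 500, 929, 1613, 1970 and 2261 CPM, and H19 at 16.6, 27.2, 71.0, 124, 128 and 240 CPM. All 17 genes picked as highest were higher in each bin than in the one before, and 7 of the 10 picked as lowest were lower in each. Mki67 stood at 127, 94.4, 75.6, 50.5, 41.5 and 22.1 CPM. Lgr5 moved little, between 182 and 277 CPM. The 17 and the 10 were picked between cells of 10 UMIs or more and cells of 2 or fewer. Among the bins, only that of 3 to 9 UMIs had no part in the pick, so much of this order is built in. The share of all genes with such an order was not computed, and the bins are cells of 1 library.

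**Figure D3:**
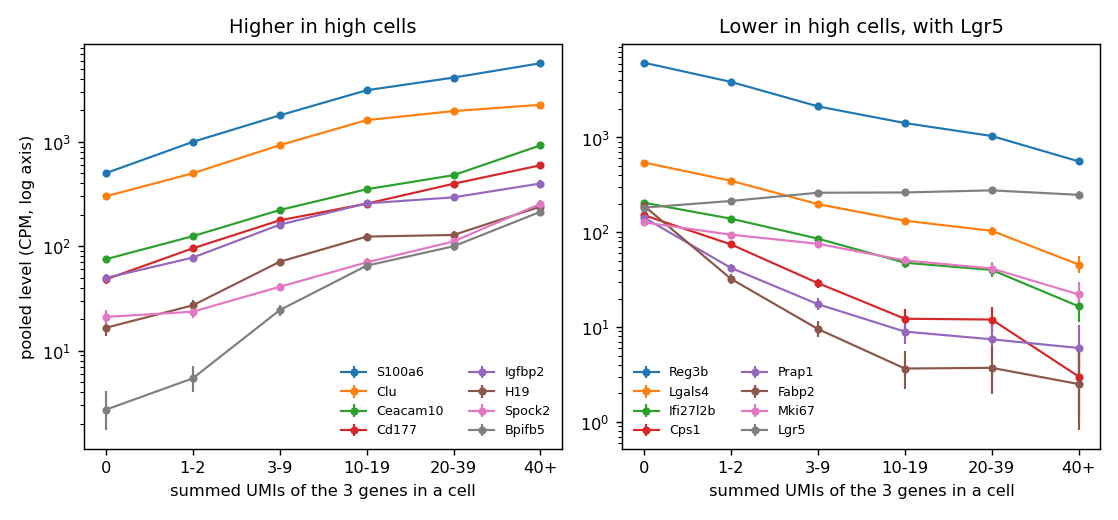
Pooled level (CPM, log axis) of named genes over day 12 cells grouped by the summed UMIs of the 3 genes, Paneth-gate cells left out, with 95% Poisson intervals. Genes in the left panel, such as S100a6 (501 CPM at 0 UMIs, 5659 CPM at 40 or more), are higher in each bin than the last, while Lgr5 in the right panel stays between 182 and 277 CPM. The left-panel genes were picked between high and low cells, so much of their rise is built in.

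The day 7 library, which did not choose the genes, gave the same direction for most of the named genes in its few high cells. Of its 32 cells that met the rule, 7 lay over the Paneth gate, and they are left out first. The other 25 held 1273 CPM of Pnliprp2, 939 CPM of Pnliprp1 and 593 CPM of Wfdc18. Of these 25, 1 cell lay over the tuft gate and held 33 of their 225 Pnliprp1 UMIs. Against 3525 low cells of day 7, all 17 genes picked as highest at day 12 were at least 2-fold higher, where 12.1% of 6731 genes were, and 8 of the 10 picked as lowest were at least 2-fold lower, where 6.25% were. The exceptions were Myl9, a myosin light chain, which was 2.31-fold higher, and Serpinb1a, at 0.915-fold. With the Paneth-gate cells kept, 16 of the 17 were higher, where 3.02% of genes were, and 8 of the 10 lower, where 25.5% were. The shares are over genes with at least 20 CPM in the higher group, a minimum not applied to the 17 and the 10.

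How many day 7 cells carried a gene differed. S100a6 stood at 3144 CPM in the 25 high cells and 107 CPM in low cells, and was detected in 24 of the 25. Notum was detected in 24 (626 CPM in high cells, 77.5 CPM in low cells), Clu in 20 (848 and 196 CPM), Cdkn1c in 20 (551 and 34.8 CPM), Ceacam10 in 17 (472 and 111 CPM) and Spock2 in 13 (171 and 6.25 CPM). Others rested on few cells or UMIs: 1 cell gave 91.5% of the Bpifb5 UMIs, and H19 had 4 UMIs in all. The low cells of day 12 also stood above those of day 7 for many of these genes, as with S100a6 (762 CPM in low cells at day 12, 105 CPM at day 7) and Cdkn1c (183 and 34.5 CPM). Day and library cannot be told apart. At day 16 all 12 cells lay over the Paneth gate, so no such comparison was made there.

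**Figure D4:**
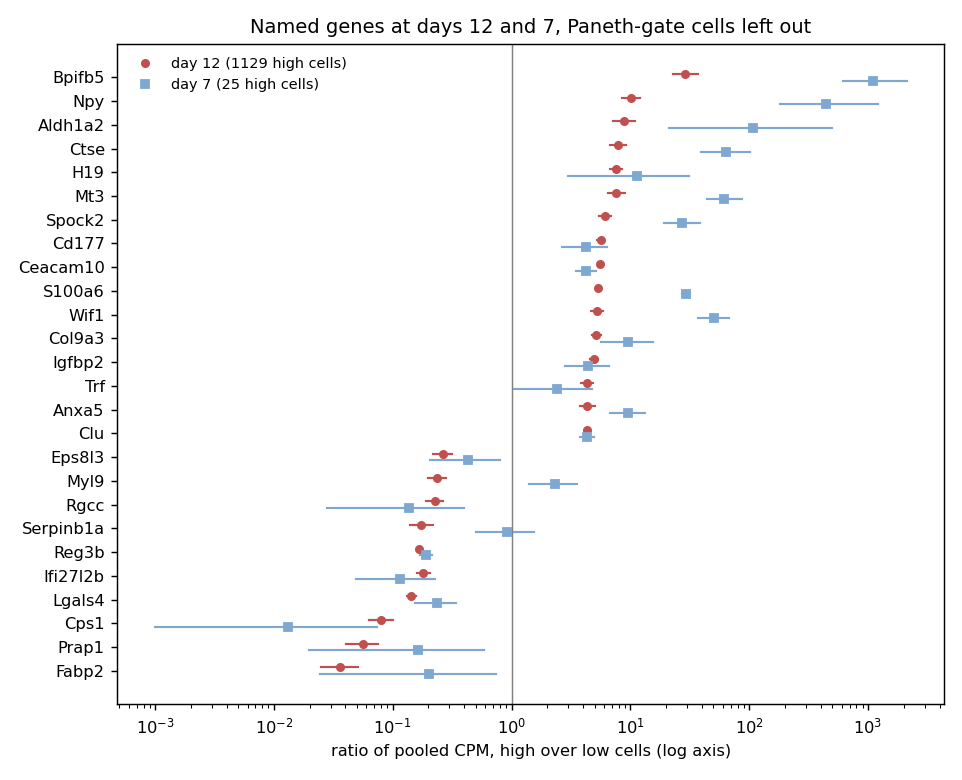
Ratio of pooled CPM, high over low cells (log axis), for 16 of the 17 highest and the 10 lowest named genes at day 12 (1129 high cells) and at day 7 (25 high cells), Paneth-gate cells left out, with 95% intervals that cover counting error only. The 16 plotted genes picked as highest lie above 1 at both days, and Myl9 lies below 1 at day 12 and above 1 at day 7.

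Bulk RNA of sorted cells showed the 2 lipase relatives at other days. Libraries held 21328684 to 27900351 counts, and in bulk fewer cells of a type and less RNA per cell cannot be told apart. Day 9 libraries held 288, 562 and 347 CPM of Pnliprp2, day 14 libraries 268 and 272 CPM, day 21 libraries 763 and 38.1 CPM, and the day 30 library 25 CPM. The day 21 libraries lay on either side of all other days' values but that of day 30. Of Pnliprp1, day 9 libraries held 9.88, 14.2 and 8.42 CPM, day 14 libraries 8.86 and 9.33 CPM, day 21 libraries 22.1 and 3.91 CPM, and the day 30 library 3.24 CPM, so the same day 21 library was the higher for both genes. Wfdc18 had 4, 1 and 7 reads at day 9, 6 and 0 at day 14, 24 and 1 at day 21, and 8 at day 30. The 2 lipase genes were thus measurable in bulk, while Wfdc18 had at most 24 reads in a library. Paneth-gate single cells held 284, 223 and 445 CPM of Pnliprp2 at days 7, 12 and 16. Over all kept cells it stood at 27.2, 351 and 29.7 CPM. In bulk, the Paneth markers Defa21 and Defa22 stood at 216 and 270 CPM in the day 21 library with more Pnliprp2. They stood at 35.8 and 34.3 CPM in the other, and at 16.1 and 16.2 CPM at day 30. Which cells the bulk lipase mRNA came from was not tested.

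None of the 3 passed the test in any contrast with day 9 (edgeR quasi-likelihood, Benjamini-Hochberg over 14692 genes, threshold 0.05). The largest estimate was that of Pnliprp2 at day 30, with a log2 fold change of -4.21 (SE 1.45, adjusted p 0.107), and its day 30 value lay below all day 9 values. Without day 21 replicate 1, Pnliprp2 passed at day 21 (log2 fold change -3.61, adjusted p 0.000734) and at day 30 (adjusted p 0.000401), and Pnliprp1 at day 21 (-1.69, adjusted p 0.0194) and day 30 (adjusted p 0.0117). Without day 21 replicate 2 both passed at day 30, with adjusted p 0.000408 for Pnliprp2 and 0.00938 for Pnliprp1. Leaving out either day 21 library thus changed these calls.

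**Figure D5:**
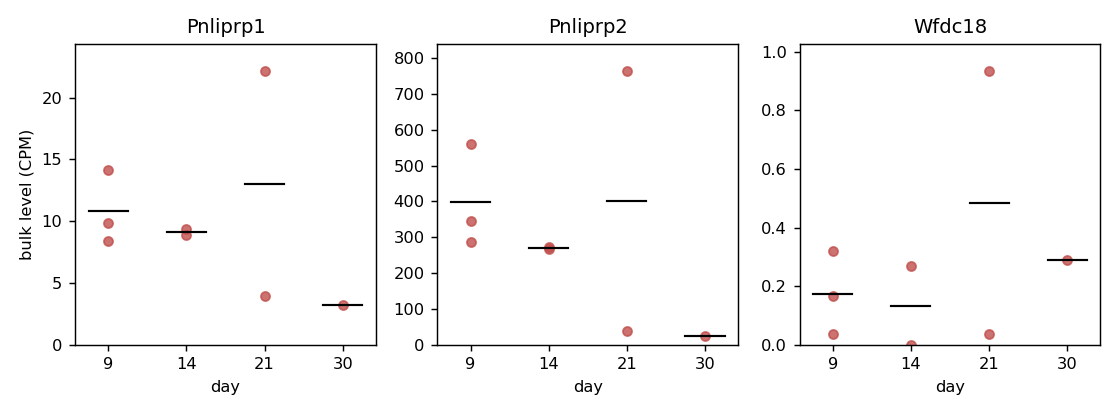
Bulk level (CPM) of Pnliprp1, Pnliprp2 and Wfdc18 in each library of days 9, 14, 21 and 30 (points) with the mean of the day (line), on a separate linear axis from 0 for each gene. The day 21 libraries stand at 763 and 38.1 CPM of Pnliprp2.

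Few of the genes that went with the 3 mRNAs in single cells passed the test in bulk. Of the 17, 14 had enough reads to be tested. At day 14, 1 rose and 2 fell against day 9, where 25.4% and 25.7% of all genes did. At day 21, 3 rose and 0 fell, where 7.46% and 12.8% did, and at day 30, 1 rose and 0 fell, where 3.67% and 6.62% did. Col9a3 rose at day 21 (3.29 ± 1.61 CPM at day 21, SD, n = 2, and 0.679 ± 0.109 CPM at day 9, SD, n = 3; log2 fold change 2.06, SE 0.42, edgeR adjusted p 0.0104) and at day 30 (2.12, adjusted p 0.0282). Aldh1a2 rose at days 14 and 21 (edgeR adjusted p 0.0213 and 0.0474), at levels under 1 CPM in every library. Spock2 and Cd177 fell at day 14 (log2 fold changes -3.02 and -1.22, edgeR adjusted p 0.0077 and 0.0216). Cdkn1c rose at day 21 (log2 fold change 0.97, edgeR adjusted p 0.0191). S100a6, the most abundant of these genes in the single-cell high group, stood between 3.83 and 11.4 CPM in bulk, Clu between 3.03 and 10.7 CPM, and Bpifb5 had no read in any bulk library.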

How the data were processed

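Droplet-based 3' single-cell RNA of 3 libraries and bulk RNA of 8 libraries were used. The deposited single-cell matrices hold raw UMI counts for all barcodes, and the deposited bulk table holds raw counts per gene. Cell Ranger 3.0.2, DESeq2, STAR 2.5.3a, Bowtie2 2.3.4.3, mm9 and SICER 0.0.1 are named in the submitters' processing notes. Which made which file is not given in the sources used here. Of the bulk table, 1 per-sample column matched no sample and was not used, 27 genes carry dates for symbols, and the second day 30 sample, the chromatin samples and the human line were not analysed here.

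Cells were filtered, and doublets were not removed. UMIs were summed per group of cells in Python 3.11.15 (NumPy 2.4.6, SciPy 1.17.1, pandas 2.3.3, matplotlib 3.10.9). Ratios have exact conditional binomial 95% intervals, shares Clopper-Pearson ones and levels Poisson ones, which cover counting error only. A floor is 3 counts. Cells of 1 library are not replicates, so no p-value was computed from them. Thinning drew 2500 UMIs per cell with a fixed seed. Class gates, whose limits were set after the data were seen, needed 3 to 6 detected markers and up to 1% of UMIs.

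Named genes were the 3 genes of the rule, the 20 largest and 10 smallest ratios among genes with at least 50 CPM in the higher group and detected in 10% of its cells (mitochondrial, ribosomal and clone names left out), up to 4 members of each of 24 lists, and the 5 most like the summed level. The members, lists and rule were chosen with earlier results of these data known. A few genes named by the rule are left out of the text. Lgr5, Smoc2, Igf2, Cdkn2a, Pnlip, Mki67 and the genes named at 0 were named after their values were seen.

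Bulk counts were fitted in edgeR 4.0.16 under R 4.3.3 (filterByExpr, TMM, quasi-likelihood, 1 mean per day, 4 residual degrees of freedom, biological coefficient of variation 0.17), which tested 14692 of 24014 genes. Replicates are labelled biological, but their animals are not described, so p-values measure the spread between libraries. Day 30, with 1 library, is assumed to vary like the other days. On simulated data for day 21 the fit recovered 159 of 200 changed genes among 165 calls. DESeq2 1.42.0 was an alternative.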

Additional observations from a re-analysis of the deposited data

Results flagged for a closer look

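UMIs of the 3 genes also appeared in barcodes that the comparisons of cells did not use. These barcodes belong to the same libraries as the cells, so their levels are not independent of those of the cells. At day 12 the barcodes with at most 50 UMIs, which hold RNA outside cells, carried 166.94 CPM of Pnliprp1, 293.07 CPM of Pnliprp2 and 596.43 CPM of Wfdc18, from 3210785 UMIs. At day 7 such barcodes carried 12, 30.8 and 62.4 CPM, and at day 16 they carried 7.4, 26.5 and 11.1 CPM. For Wfdc18 at day 16 that was 36 UMIs, while all kept cells of that library held 8 UMIs (0.227 CPM). Where this Wfdc18 RNA came from was not tested. The day 12 values were higher than those of both other libraries for each gene.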

How the results depend on the processing

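With other limits the count of high cells was 1629 at 5 UMIs or more, 632 at 20 or more, 726 with all 3 genes detected, 1375 with 1 gene enough, 998 among cells of at least 5000 UMIs and 1306 at 0.1% or more of UMIs, beside 1136. The share of cells meeting the rule was 9.33%, 34.9% and 28.0% at day 12 with thinned cells, with 5 UMIs or more and at 0.1% of UMIs, 0.235% and 1.75% at day 7 with the first 2 of these, and at day 16 0.0358% with thinned cells and 0% without Paneth-gate cells. Genes at least 2-fold higher and lower in high cells numbered 150 and 86 against low cells matched on total UMIs, 124 and 112 against all other kept cells, 139 and 83 at 50 CPM or more, and 1722 and 915 with no minimum, beside 245 and 192. Lower counts are built into the stricter minimum, and the cause of the others was not tested. Of the 77 named genes past 2-fold, 76 kept their direction against matched low cells and 66 stayed past 2-fold. Settings named here that leave out Paneth-gate cells or cells over any gate, or set that gate at 3%, were chosen after seeing the data. Among the named genes past 2-fold, log2 ratios that reversed without Paneth-gate cells and without cells over any gate were those of Defa5 (-0.29 and -0.35), Mptx2 (-0.89 and -0.94) and Ang4 (-3.0 and -1.54), and, without cells over any gate, those of Apoa1 (0.73), Apoa4 (0.23) and Cck (0.97, and 0.0013 against matched low cells). With all cells kept, high cells held 11 Apoa1, 3 Apoa4 and 4 Cck UMIs, so the reversals of those genes rest on few UMIs. Lyz1, under 2-fold with all cells, stood at -3.17 without Paneth-gate cells and -2.54 without cells over any gate. A Paneth gate at 3% of UMIs held 4 high and 2 low cells. In bulk, scaling by library size alone gave 2827 higher and 1010 lower genes at day 21 and 1729 higher at day 30, beside 1096, 1878 and 539, and a log2 fold change of 0.006 for Pnliprp2 at day 21. Same-numbered libraries had deviations that correlated at -0.0206 to 0.0476, so the numbers were not taken as pairs, and a replicate block gave 507 higher and 1182 lower genes at day 21, 185 and 579 at day 30, and a log2 fold change of -0.36 for Pnliprp1 at day 21. Leaving out 1 library gave 2924 to 3760 higher and 3021 to 3756 lower genes at day 14, 611 to 1130 and 1187 to 1732 at day 21, and 249 to 613 and 626 to 1220 at day 30, with Pnliprp1 at -1.69 to 0.81 and Pnliprp2 at -3.61 to 0.71 at day 21. DESeq2 called Pnliprp2 at day 30 (adjusted p 0.0296). The depth of the 32 cells of day 7, and single libraries per day, limit every comparison between days.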
